A study of Mus musculus with 28 samples.

Results

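The TRAP Input libraries of the cerebral cortex at P24, 3 cKO against 3 Ctrl, are described here across all genes. They are the columns of the TRAP-Seq table that carry the word Input, and they make up 6 of the 28 libraries of the series. TRAP-Seq (translating ribosome affinity purification) pulls tagged ribosomes, with the mRNA bound to them, out of a tissue lysate; the Input is the share of that lysate set aside before the pull-down and holds RNA of every cell type. The other 22 libraries are the 6 IP libraries of the same 6 mice and bulk RNA-Seq of whole cortex, 4 cKO and 4 Ctrl mice at each of P24 and P17. Each library came from 1 mouse, so the spread between replicates is a spread between animals.

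The cKO mice carried a Cre recombinase driven by the mouse GFAP promoter (mGFAP-Cre), which acts in astrocytes, and loxP-flanked alleles of the targeted gene. In the TRAP-Seq experiment a ribosomal protein joined to green fluorescent protein (EGFP-L10a) was also expressed, dependent on Cre. Ctrl mice were sex-matched littermates with the genotype f/f or f/+. Whether the Ctrl mice of this experiment carried mGFAP-Cre is not stated outright in the sources used here. IP libraries were made from them too, however, with a tag that needs Cre, and the paper reports that astrocyte genes were enriched in the Ctrl IP. The bulk mice were other animals, for which no ribosome tag is described, and the bulk Ctrl genotypes are given without the driver. For TRAP-Seq both cortices of a mouse were homogenised, detergents were added to the supernatant, and 10% of the lysate cleared by a spin served as the Input, whereas RNA for bulk libraries was extracted from flash-frozen cortex. The TRAP-Seq libraries were built with a NEBNext Ultra RNA kit from mRNA caught on oligo-dT beads, and the bulk RNA was reverse-transcribed from oligo-dT primers.

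Astrocytes clear potassium and glutamate from the space around neurons and feed neurons with metabolites. After many kinds of injury or disturbance they become reactive: they raise intermediate filament proteins such as Gfap and vimentin and turn on genes that are silent or weak in resting astrocytes. Because the Input is a lysate of all cells, a change in 1 cell type is diluted by RNA of the others, and fewer cells of a type and less RNA per cell cannot be told apart.

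Total counts on genes lay between 18433087 and 23518706 in the Ctrl and between 23327604 and 27242445 in the cKO Input libraries, so that 3 counts, taken as the smallest level a library can show, corresponded to between 0.110 and 0.163 CPM, the count of a gene scaled to the size of its library. cKO replicate 1 stood apart from the other libraries. Its profile correlated with those of the other 5 libraries at 0.956 to 0.962 across genes, against values of up to 0.985 among the others, and its residuals from the group mean had an SD of 0.50 on the log2 scale against 0.26 to 0.34. The library had high hemoglobin RNA, with Hbb-bs at 192, 47.4 and 40.3 CPM in cKO replicates 1 to 3 and 42.1, 58.6 and 45.0 CPM in Ctrl replicates 1 to 3. Its residuals also leaned by gene length, with a median of 0.07 on the log2 scale for the genes below the lower quartile of exonic length and −0.17 for those above the upper one. The counts of called genes in the Input are therefore given with and without this library. Of the Y-linked genes, Kdm5d and Eif2s3y were above the level of 3 counts in Ctrl replicate 2 alone, at 10.1 and 9.89 CPM, and Ddx3y was read in every library, between 21.5 and 58.3 CPM; Xist, the RNA of the inactive X chromosome, was at or below 0.594 CPM in all 6. Whether the sex of the mice had a part in the results was not tested. Marker lists were read beside the labelled tissue. The 12 cortical layer genes found among the identifiers, the 8 excitatory neuron genes and the 12 striatal genes all passed the filter on low counts. Passing that filter therefore cannot tell cortex from striatum. The cortical layer list summed to between 625 and 707 CPM in the 6 Input libraries. The striatal list, genes of the region under the cortex, summed to 1441, 1623 and 1158 CPM in Ctrl and 1464, 1421 and 1387 CPM in cKO mice, ranges that overlapped.

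**Figure D1:**
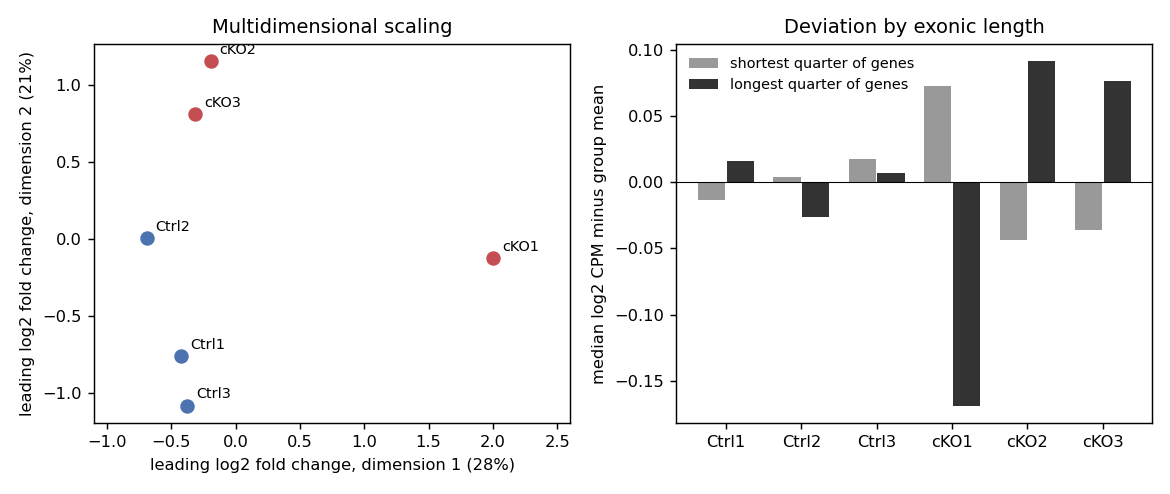
Left, the 6 Input libraries by multidimensional scaling, whose axes are leading log2 fold changes (28% and 21% of the variance); cKO replicate 1 lies at 2.00 on dimension 1, away from the other 5. Right, for each library the median deviation from its group mean (log2 CPM) over the shortest genes (grey, exonic length up to the lower quartile of 1149 bases) and the longest (black, above the upper quartile of 5368 bases); in cKO replicate 1 they are 0.07 and −0.17.

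In the cKO Input libraries 22 of 23828 genes tested rose and 4 fell at an adjusted p under 0.05 (edgeR's quasi-likelihood test), which is 0.109% of the genes (0.0923% higher and 0.0168% lower). Without any adjustment 960 genes had a p under 0.05. The protein-coding genes that rose had their largest fold changes in the galectin Lgals3, the collagen chain Col5a3, the calcium-binding protein S100a4 and the intermediate filament protein vimentin (Vim), and they included enzymes that detoxify peroxides and electrophiles, Gstm1, Gstm3 and Prdx6. Of the 4 genes that fell, 1 is not reported here. In all 25 of the others the 3 cKO and the 3 Ctrl values did not overlap. These genes were called on the same values, so this describes them and is no separate support. The share of all genes without overlap was not counted.

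Lgals3 (ENSMUSG00000050335, chr14:47367751-47386160), a sugar-binding lectin of activated microglia, macrophages and some reactive astrocytes, stood at 0.125, 0.220 and 0.102 CPM in Ctrl replicates 1 to 3 and 6.17, 9.0 and 4.86 CPM in cKO replicates 1 to 3. The Ctrl values lie around the level of 3 counts, whereas every cKO library was far above it, with 493 counts in all against 9 (log2 fold change 5.46, standard error 0.40, adjusted p = 0.00382). Col5a3 (ENSMUSG00000004098, chr9:20770050-20815067), which encodes a chain of fibrillar collagen type V, rose to almost the same level in each cKO mouse: it was at 0.292, 0.220 and 0.0508 CPM in Ctrl replicates 1 to 3 and 4.80, 4.75 and 4.96 CPM in cKO replicates 1 to 3 (log2 fold change 4.61, standard error 0.39, adjusted p = 0.00649). Vim (ENSMUSG00000026728, chr2:13573927-13582826) was the most abundant of these genes. Its values were 13.1, 13.4 and 10.7 CPM in Ctrl replicates 1 to 3 and 90.0, 212 and 93.5 CPM in cKO replicates 1 to 3, a mean of 132 ± 69.2 CPM against 12.4 ± 1.48 CPM (SD, n = 3 each; log2 fold change 3.41, standard error 0.35, adjusted p = 0.0220). The cKO values of Vim spread widely, with replicate 2 above the other two, but the lowest of them was still far above the highest Ctrl value. Gfap, the filament protein that classically marks reactive astrocytes and whose promoter drives the Cre, was at 127, 152 and 113 CPM in Ctrl and 301, 487 and 347 CPM in cKO mice and missed the threshold narrowly (log2 fold change 1.53, standard error 0.21, adjusted p = 0.0504). Without cKO replicate 1 its log2 fold change was 1.67 and it passed (adjusted p = 0.00357).

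The S100 family of calcium-binding proteins held 2 of the genes that rose. S100a4 (ENSMUSG00000001020, chr3:90603771-90606045), found in migrating and reactive cells, was at 0.542, 0.494 and 0.355 CPM in Ctrl replicates 1 to 3 and 5.68, 8.58 and 4.05 CPM in cKO replicates 1 to 3 (log2 fold change 3.69, standard error 0.36, adjusted p = 0.0166), and S100a6 was at 5.96, 6.76 and 5.99 CPM in Ctrl and 26.7, 25.3 and 14.6 CPM in cKO mice (log2 fold change 1.83, standard error 0.24, adjusted p = 0.0441). S100a1 was at 15.8, 16.3 and 17.5 CPM in Ctrl and 94.7, 52.2 and 45.1 CPM in cKO mice, highest in cKO replicate 1, and did not pass (adjusted p = 0.0516). Over the family, chosen for a closer look after its values were seen, all 9 genes tested had a log2 fold change above 0, with a median of 1.28 against 0.01 for all genes; 2 rose with all 6 libraries and 5 without cKO replicate 1, beside 0.0923% and 0.421% of all genes. In 7 of the 9 genes cKO replicate 1 held the highest value, so the size of the median rests in part on that library: without it the median was 0.92. S100b, the usual astrocyte marker of the family, did not pass (0.77, adjusted p = 0.812). Gm42674, which also rose (2.73, adjusted p = 0.0335), overlaps S100a4 on the same strand, so reads of the 2 genes may not be separable.

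Glutathione S-transferases of the mu class, which join glutathione to reactive electrophiles, included 2 protein-coding genes that rose. Gstm1 (ENSMUSG00000058135, chr3:108012255-108017973) was at 54.8, 52.6 and 52.4 CPM in Ctrl replicates 1 to 3 and 182, 196 and 156 CPM in cKO replicates 1 to 3, a mean of 178 ± 20.5 CPM against 53.3 ± 1.31 CPM (SD, n = 3 each; log2 fold change 1.74, standard error 0.15, adjusted p = 0.00649). Both groups were tight and lay far apart. Gstm3 was at 2.37, 1.65 and 2.54 CPM in Ctrl and 8.06, 8.37 and 7.37 CPM in cKO mice (log2 fold change 1.85, standard error 0.22, adjusted p = 0.0307), and the annotated pseudogene Gstm2-ps1 was at 13.7, 13.1 and 14.3 CPM in Ctrl and 33.6, 49.4 and 39.1 CPM in cKO mice (log2 fold change 1.57, standard error 0.18, adjusted p = 0.0279). The mu-class genes are close relatives, and how reads that fit several of them were counted is not given in the sources used here, so the split between them is uncertain. All 7 mu-class genes tested lay above 0 with a median of 0.49, or 0.31 without cKO replicate 1, in which 4 of them were highest; 2 of the 7 passed with and without it (0.0923% and 0.421% of all genes were higher). The 11 other glutathione S-transferases had a median of 0.24, 8 of them above 0 and none passing; 9 of the 11 were highest in cKO replicate 1, and without it their median was 0.04.

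Prdx6, a peroxiredoxin that reduces peroxides of lipids, was at 131, 142 and 130.2 CPM in Ctrl replicates 1 to 3 and 381, 326 and 267 CPM in cKO replicates 1 to 3 (log2 fold change 1.27, standard error 0.16, adjusted p = 0.0410). The other 5 peroxiredoxins did not pass. All 6 had their highest value in cKO replicate 1, as Prdx2 shows with 449, 227 and 219.6 CPM in cKO replicates 1 to 3 beside 231, 244 and 221 CPM in Ctrl; the family's median was 0.44 with that library and 0.15 without it. Nfe2l2, which encodes the transcription factor NRF2, the main activator of glutathione and peroxide enzymes, was at 7.33, 7.20 and 7.46 CPM in Ctrl and 16.9, 15.3 and 14.8 CPM in cKO mice. Its groups were narrow and did not overlap, yet it just missed the threshold (log2 fold change 1.10, standard error 0.15, adjusted p = 0.0504). Sod3, the extracellular superoxide dismutase, was at 1.67, 1.92 and 1.57 CPM in Ctrl and 4.18, 7.23 and 5.73 CPM in cKO mice (adjusted p = 0.0681). The transferase and peroxiredoxin families and Nfe2l2 were chosen after their values were seen.

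The other protein-coding genes that rose have varied roles. Nupr1, a small chromatin protein induced by stress, was at 4.00, 3.19 and 2.59 CPM in Ctrl and 24.7, 16.1 and 14.1 CPM in cKO mice (log2 fold change 2.48, standard error 0.27, adjusted p = 0.0257). Ip6k3, a kinase of inositol phosphates, was at 3.92, 4.25 and 3.77 CPM in cKO and 0.167, 0.494 and 0.508 CPM in Ctrl mice (log2 fold change 3.38, standard error 0.36, adjusted p = 0.0254). Igfbp2, a secreted carrier of insulin-like growth factors made by astrocytes, was at 34.4, 28.2 and 20.6 CPM in cKO and 8.50, 9.50 and 6.85 CPM in Ctrl mice (log2 fold change 1.74, adjusted p = 0.0410). In each of them the lowest cKO value was well above the highest Ctrl value.

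The tetraspanin Cd9, found at the surface of many glial cells, was at 33.9, 37.0 and 28.7 CPM in cKO and 10.3, 13.1 and 12.8 CPM in Ctrl mice (log2 fold change 1.46, adjusted p = 0.0307). Cnn3, a calponin that binds actin, was at 108, 114 and 90.2 CPM in cKO and 46.6, 41.0 and 39.5 CPM in Ctrl mice (1.30, adjusted p = 0.0328). The membrane protein Tmem176a was at 9.29, 9.46 and 9.29 CPM in cKO and 2.46, 3.30 and 3.10 CPM in Ctrl mice (1.67, adjusted p = 0.0279), and its neighbour and relative Tmem176b did not pass (1.45, adjusted p = 0.0504). The cKO mice differed little among themselves in these genes. Tmem176b overlaps Tmem176a on the other strand. Such overlaps are also annotated for Cd9 (Gm28809 and Gm26728), Cnn3 (Gm42928) and Col5a3 (Gm26274), and Gm42929 overlaps Cnn3 on the same strand. The strand setting of the counts is not given in the sources used here, so reads of overlapping genes may not be separable.

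Aldoc, the aldolase of glycolysis that astrocytes use, was the most abundant gene to rise and had the smallest change. It was at 377, 425 and 411 CPM in Ctrl replicates 1 to 3 and 752, 794 and 753 CPM in cKO replicates 1 to 3 (log2 fold change 0.92, standard error 0.13, adjusted p = 0.0485). Ccl19, a chemokine that draws lymphocytes and dendritic cells, was at 2.07, 1.72 and 1.82 CPM in cKO and 0.417, 0.275 and 0.203 CPM in Ctrl mice (2.6, adjusted p = 0.0441). These 2 were the genes that rose in the Input and were tested but not called in bulk cortex of the same age: their log2 fold changes there were 0.04 and −0.08. In the IP of the same mice Aldoc had a log2 fold change of 0.01. Ccl19 is overlapped by 4930578G10Rik on the other strand, so its reads may not be separable.

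**Figure D2:**
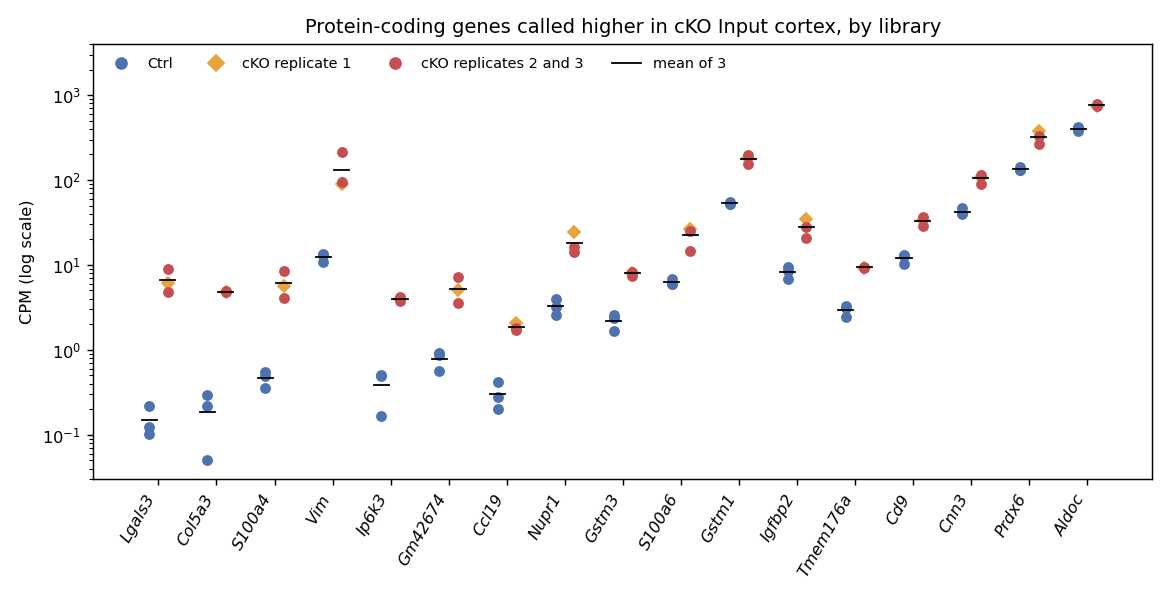
CPM of each Input library, on a log scale, for the 17 protein-coding genes called higher in cKO, ordered by log2 fold change. Blue points are the 3 Ctrl mice, the orange diamond is cKO replicate 1, red points are cKO replicates 2 and 3 and black bars are means of 3; in each gene the 3 cKO values lie above the 3 Ctrl values.

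Of the 22 genes that rose, 5 are annotated as pseudogenes. Gm8834 and Gm18252 overlap on the same strand and had nearly the same values, 4.75, 5.77 and 5.28 CPM in Ctrl and 14.1, 18.7 and 13.7 CPM in cKO mice for the first, so they count the same or similar reads and are uncertain. Gm11522 was at 0 in all 3 Ctrl libraries and at 2.20, 4.33 and 5.27 CPM in cKO replicates 1 to 3, 304 counts against 0, which is at least 27.5-fold higher when 3 counts in each Ctrl library stand for 0. It was at 0 in all 6 IP libraries. Gm11522 overlaps Spop on the other strand, and their reads may not be separable. Gm30646 had 67 counts in cKO and 1 in Ctrl libraries, a ratio of scaled counts of 55.2 with an exact interval of 9.58 to 2213 that covers counting error only.

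The 3 reported genes that fell were low. Gm13787, a processed pseudogene within 1110051M20Rik, was at 3.25, 2.80 and 3.15 CPM in Ctrl replicates 1 to 3 and 0.0440, 0 and 0 CPM in cKO replicates 1 to 3: 191 counts in Ctrl and 1 in cKO libraries, 232-fold fewer after scaling with an exact interval of 41.1 to 9203 (adjusted p = 0.00382). In the IP libraries of the same mice it was read in both groups, from 1.95 to 2.65 CPM in Ctrl and from 0 to 2.31 CPM in cKO. 5730408A14Rik, an unverified transcript within Rgs7, was at 1.25, 1.21 and 1.12 CPM in Ctrl and at 0 in all 3 cKO Input libraries, 74 counts against 0 or, with 3 counts in each cKO library standing for 0, at least 9.88-fold lower. It too was read in the cKO IP libraries, from 0.680 to 0.864 CPM, against 0 to 1.07 CPM in Ctrl. Reads of these 2 genes and of the genes around them may not be separable. Olfr1274-ps, named as an olfactory receptor pseudogene and annotated as protein-coding, went from 82 counts in Ctrl to 1 in cKO, and in the IP its ranges in both groups overlapped, 0 to 0.594 and 0 to 0.518 CPM.

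Genes below the threshold with the lowest p among those lower in cKO were led by Ppp2r2cos, an antisense RNA whose reads cannot be told from those of Ppp2r2c without strand, at 11.5, 11.2 and 10.5 CPM in Ctrl and 3.57, 1.05 and 2.69 CPM in cKO mice (log2 fold change −2.18, adjusted p = 0.118). Among them were Trh, the precursor of thyrotropin-releasing hormone, at −1.03, and Cdhr1, Kirrel2 and Doc2g, at −1.14, −0.62 and −2.02. Cdhr1 and Doc2g are strong in the olfactory bulb, and the list of olfactory bulb and neuroblast genes lay below 0 in all 8 members tested, with a median of −0.65. None of its members passed. Its summed level was 148, 99.5 and 126 CPM in Ctrl and 95.1, 91.9 and 93.5 CPM in cKO mice; how much olfactory tissue each dissection held was not tested.

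The sequence upstream of the gene start is shown for 4 of the genes that rose, since the genes that rose together were searched there for shared motifs and these 4 windows contain no annotated exon. RefSeq windows of GRCm38.p6 were found for 15 of the 25 reported genes, all higher in cKO, and the 250 bases before the start were searched in 19 windows on both strands. The core of the antioxidant response element, TGACNNNGC, which NRF2 binds, was in 0 of the 19 windows and in 10.2% of all 32841 windows of the same length in the reference set. The AP-1 letters TGANTCA were in 1 of 19 (5.26%; 6.75% of all windows), TATAAA in 3 of 19 (15.8%; 12.4% of all) and the GC box GGGCGG in 8 of 19 (42.1%; 32.7% of all). Among windows of the genes tested in the Input alone, 11.6%, 4.76%, 7.17% and 52.0% held these 4 motifs in the same order. These shares are descriptions of 250 bases and say nothing of sites elsewhere. Some genes have more than 1 window, and those of Gstm1 and of Tmem176a overlap each other. Capitals mark the motif letters that were found, and each window is printed 5′ to 3′ on the strand of the gene. The GC boxes of Col5a3 lie on the other strand and read CCGCCC, and the TATAAA of S100a4 begins 31 bases before the start. The Gstm1 window printed held none of the motifs, whereas its other window, not printed, held a TATAAA that begins 30 bases before its start.
Col5a3, chr9:20815068-20815317, minus strand: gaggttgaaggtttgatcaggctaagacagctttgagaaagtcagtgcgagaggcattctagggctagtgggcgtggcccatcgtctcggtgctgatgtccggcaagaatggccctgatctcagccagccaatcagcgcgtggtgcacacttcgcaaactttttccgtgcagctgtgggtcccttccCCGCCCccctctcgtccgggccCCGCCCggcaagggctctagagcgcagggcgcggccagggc
Gstm1, chr3:108017974-108018223, minus strand: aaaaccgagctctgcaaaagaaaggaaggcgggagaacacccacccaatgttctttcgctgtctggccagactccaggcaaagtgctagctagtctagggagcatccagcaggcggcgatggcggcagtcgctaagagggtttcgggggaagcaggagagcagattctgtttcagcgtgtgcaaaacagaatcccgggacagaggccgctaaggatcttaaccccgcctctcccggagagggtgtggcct
Igfbp2, chr1:72824230-72824479, plus strand: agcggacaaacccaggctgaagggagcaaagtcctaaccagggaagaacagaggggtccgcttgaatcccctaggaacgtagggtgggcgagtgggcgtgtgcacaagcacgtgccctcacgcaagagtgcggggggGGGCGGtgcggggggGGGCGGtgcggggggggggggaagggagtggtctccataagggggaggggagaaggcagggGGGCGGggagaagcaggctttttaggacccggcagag
S100a4, chr3:90603520-90603769, plus strand: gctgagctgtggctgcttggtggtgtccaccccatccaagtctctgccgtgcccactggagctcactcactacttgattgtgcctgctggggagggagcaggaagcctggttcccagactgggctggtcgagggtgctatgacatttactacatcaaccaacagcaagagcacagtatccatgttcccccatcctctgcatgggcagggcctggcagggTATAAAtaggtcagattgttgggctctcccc

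Without cKO replicate 1, 112 of 24439 genes passed, 103 higher and 9 lower (0.458%; 0.421% and 0.0368%), and the biological coefficient of variation fell from 0.22 to 0.12. All 26 genes called with 6 libraries were among them. cKO replicate 1 was singled out for its large residuals in these same counts, so the lower variation without it follows from that choice. The number of added calls has to be read with that choice. Of the 81 genes that were added in the upward direction, 55 were also called higher in P24 bulk cortex, where 1.26% of all 22495 genes tested were called higher. The 6-library groups did not overlap in 77 of the 86 added genes and overlapped in the other 9, as the values of Kcnj10 given with the lists show. The 86 genes were called on 5 of these same 6 libraries, so the count of 77 is no separate support. It also cannot be weighed against all genes, since their share without overlap was not counted. The 5 added genes that were lower are Ppp2r2cos, Mir128-2, Gm27200, Gm38224 and Gm43011, 2 antisense RNAs, a microRNA precursor and 2 unverified transcripts, of which all but Ppp2r2cos were chosen after their values were seen; Gm27200 was at 3.37, 4.89 and 4.21 CPM in Ctrl and 2.69, 0.0420 and 0.210 CPM in cKO mice.

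Leaving out any other library but cKO replicate 3 gave fewer calls. Without Ctrl replicate 1, 2 or 3 the counts were 5, 4 and 5 genes, without cKO replicate 2 there were 18, and without cKO replicate 3 there were 37. Lgals3, Col5a3 and Gm13787 passed in 5 of these 6 fits. The other 22 reported genes passed in 1 to 3 of them, and all 25 kept their direction in all 6.

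Gene lists for cell types and pathways held 331 distinct genes tested in the Input. Of these, 3 passed, Lgals3, Vim and Aldoc, all higher (0.0923% of all genes were higher), and 17 passed without cKO replicate 1, again all higher (0.421% of all genes were higher there). The lists are given below by their counts and medians beside the all-gene median of 0.01.

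The astrocyte markers lay above 0 in 12 of 15 genes, with a median of 0.47 and 0.43 without cKO replicate 1, and 1 passed, Aldoc. Their summed level was 1311, 1605 and 1506 CPM in Ctrl and 1999, 2422 and 2245 CPM in cKO mice, without overlap. Much of the gap between these sums was Aldoc, whose levels are given above, so the sums say less of the other members. In bulk cortex, in contrast, the summed level was 5535 to 6134 CPM in Ctrl and 5159 to 5648 CPM in cKO mice, and the median was 0.04 with 3 genes higher and 4 lower. Summed levels were also lower in the Input than in bulk for some other cell types, in tables that were normalised separately. The endothelial list lay between 13.5 and 21.2 CPM in the 6 Input libraries and between 199 and 219.5 CPM in bulk. The microglial list lay between 226 and 324 CPM and between 462 and 635 CPM. Other lists were not lower: genes shared by all neurons lay between 5735 and 6485 CPM in the Input and between 5188 and 5779 CPM in bulk. The striatal list was higher in the Input, between 1158 and 1623 CPM against 286 to 1022 CPM in bulk. These levels were not tested against each other. Aldh1l1, a folate enzyme and general astrocyte marker, was at 52.2, 48.7 and 49.7 CPM in Ctrl and 83.6, 113 and 85.3 CPM in cKO mice (log2 fold change 0.90, adjusted p = 0.164, and 0.0131 without cKO replicate 1). Acsbg1, an acyl-CoA synthetase of astrocytes, passed without that library (adjusted p = 0.0229).

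Genes for the handling of potassium, water and glutamate, astrocyte functions, had a median of −0.03 over 13 genes, 6 of them above 0, and none passed with all 6 libraries. Without cKO replicate 1 the median turned to 0.17 with 9 above 0. Kcnj10, the inward rectifier potassium channel of astrocytes, was at 26.3, 33.9 and 29.6 CPM in Ctrl replicates 1 to 3 and 25.7, 75.6 and 77.6 CPM in cKO replicates 1 to 3. cKO replicates 2 and 3 were above every Ctrl mouse and replicate 1 below all of them (log2 fold change 1.00, adjusted p = 0.812). Without that library Kcnj10 passed (1.36, adjusted p = 0.00217), as did its partner subunit Kcnj16 and the water channel Aqp4, at 11.1, 16.2 and 14.9 CPM in Ctrl and 17.9, 44.1 and 39.4 CPM in cKO mice (1.57, adjusted p = 0.00357). The main glutamate transporters did not pass either way: Slc1a2 was at 265, 313 and 316 CPM in Ctrl and 159.6, 336 and 335 CPM in cKO mice and Slc1a3 at 62.0, 72.8 and 82.0 CPM in Ctrl and 53.7, 84.7 and 87.4 CPM in cKO mice. In bulk cortex their log2 fold changes were −0.41 and −0.40.

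Of the pan-reactive astrocyte list, genes raised after several kinds of injury, 9 of 11 tested lay above 0, with a median of 0.78, and Vim passed. The summed level was 174, 202 and 155 CPM in Ctrl and 443, 750.5 and 483 CPM in cKO mice, without overlap. Most of this sum in every library was Gfap and Vim, whose levels are given above, so it says little of the other members. Serpina3n, a secreted protease inhibitor, was at a log2 fold change of 1.48 and passed without cKO replicate 1 (adjusted p = 0.00828), and the cytokine receptor Osmr was at 1.58 (adjusted p = 0.360). The A1-type and A2-type lists, genes first defined after inflammation and after ischemia, had medians of 0.35 and 0.18, or 0.15 and 0.23 without cKO replicate 1, with no gene passing.

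The 7 tested genes of activated phagocytes, microglia or macrophages that engulf debris, all lay above 0, with a median of 0.50 and 0.72 without cKO replicate 1. Lgals3 passed. Gpnmb, a glycoprotein of lipid-laden phagocytes, was at 0.792, 0.769 and 0.965 CPM in Ctrl and 3.17, 11.9 and 8.17 CPM in cKO mice, lowest in cKO replicate 1 (log2 fold change 3.20, adjusted p = 0.0681, and 0.000949 without that library). The summed level was 28.9, 30.6 and 27.9 CPM in Ctrl and 49.2, 68.0 and 52.7 CPM in cKO mice. Microglial identity genes did not pass: 11 of 13 lay above 0 with a median of 0.48, and their summed level, 236, 255 and 226 CPM in Ctrl and 324, 276 and 239.5 CPM in cKO mice, overlapped between the groups and was highest in cKO replicate 1. The part of phagocytes in the rise of Lgals3 was not tested.

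The neuronal lists had medians near 0. Genes shared by all neurons had a median of 0.03, excitatory neurons −0.07, inhibitory neurons 0.02 and cortical layers −0.02. Oligodendrocyte genes had 0.20 with 10 of 12 above 0. A further 14 lists, among them endothelial, mural, hippocampal, striatal, heat shock, interferon response and cholesterol synthesis genes, had medians between −0.18 and 0.27, and none of their members passed with or without cKO replicate 1. Blood genes, 4 hemoglobin chains and a heme enzyme, had a median of 0.87 that turned to −0.15 without cKO replicate 1. Their summed level of 759, 191 and 143 CPM in cKO replicates 1 to 3 shows the same library, beside 169, 258 and 173 CPM in Ctrl. Immediate early genes, which neurons switch on within minutes of activity, lay above 0 in 3 of 22 with a median of −0.30; none passed, and the summed levels of 1795, 1524 and 1279.9 CPM in Ctrl and 1407, 1159 and 1221 CPM in cKO mice overlapped.

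Among metabolic lists, 19 of 26 genes of serine, glycine and folate metabolism lay above 0, with a median of 0.22, and none passed with 6 libraries. Without cKO replicate 1, Gatm, the first enzyme of creatine synthesis (adjusted p = 0.0137), and Cbs, which joins serine to homocysteine (adjusted p = 0.0107), passed. From the glutamate and transaminase list, with a median of −0.03, Gpt, an alanine transaminase, Glud1, glutamate dehydrogenase, and Pnp, a purine nucleoside phosphorylase, passed without that library (adjusted p = 0.0407, 0.0224 and 0.0443). The tricarboxylic acid cycle list had a median of 0.13 and 0.00 without that library. None of the 13 genes encoded in mitochondrial DNA is in the table that was analysed.

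**Figure D3:**
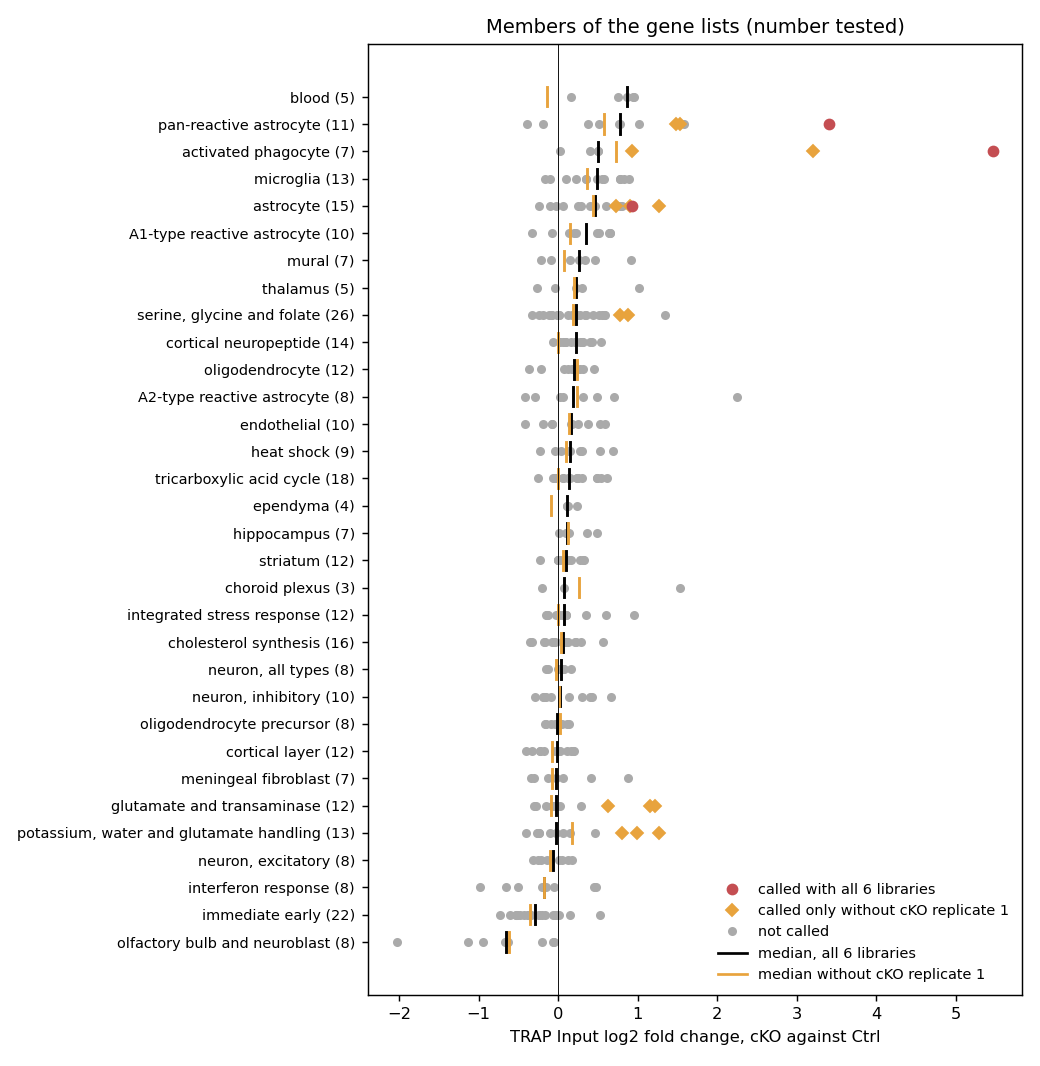
Log2 fold change in the Input of every tested member of each list, with the number tested in brackets. Red members passed with all 6 libraries, orange diamonds passed without cKO replicate 1 and not with it, and bars are list medians with (black) and without (orange) that library; the blood median moves from 0.87 to −0.15.

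P24 bulk cortex gave a list of genes chosen on other mice. In that comparison 388 of 22495 genes passed, 284 higher and 104 lower (1.72%; 1.26% and 0.462%), and 385 of them were tested in the Input. There 350 of the 385 (90.9%) had the same sign as in bulk, against 12978 of 21097 (61.5%) for all genes tested in both. The share was larger for the genes higher in bulk, 273 of 282, than for those lower in bulk, 77 of 103. Across the 385 genes the log2 fold changes correlated with r = 0.807 and rho = 0.839, against r = 0.355 and rho = 0.308 over all 21097 genes; within the 282 genes higher in bulk they were 0.713 and 0.701, and within the 103 lower in bulk 0.664 and 0.261. The 385 genes were chosen at both ends of the bulk values, genes are not independent replicates, and the values carry no p. Of the 385, 19 passed in the Input itself, 18 higher and 1 lower, of 22 called among the 21097. Without cKO replicate 1, 74 passed, 73 of them higher, of 103 called among 21089.

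Genes higher in bulk had a median log2 fold change of 0.68 there and 0.61 in the Input, nearly the same size. Genes lower in bulk had a median of −0.43 there and −0.16 in the Input, or −0.09 without cKO replicate 1. Lgals3 had 5.41 in bulk, 5.46 in the Input and 5.26 in the IP of the Input mice; Vim had 3.22, 3.41 and 3.13. Gdf15, a stress hormone of the TGF-beta family, had 5.61 in bulk and 2.27 in the Input without passing (adjusted p = 0.539). Of the genes lower in bulk, Sp8, a transcription factor of olfactory interneurons, had −2.21 and −0.94, and Myoc, a secreted protein, had −1.52 and −1.55. Signs were opposite for Vapa, Slc7a10 and S100b, which were lower in bulk at −0.93, −0.75 and −0.41 and at 0.24, 0.27 and 0.77 in the Input, where none passed.

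The IP libraries come from the same mice as the Input, so their values are set beside it and not counted as a second observation. For Col5a3 the log2 fold change was 4.61 in the Input and 5.89 in the IP, for S100a6 1.83 and 2.52, and for Cd9 1.46 and 1.85. The order was the other way for Gstm1, at 1.74 and 0.96, Gstm3, at 1.85 and 0.91, and Prdx6, at 1.27 and 0.63. It was also the other way for Lgals3, Vim and Aldoc, whose values are given above, so it was not particular to detoxifying enzymes. Whether the 2 fractions differed was not tested here. At the earlier age, in P17 bulk cortex of other mice, the log2 fold changes of 4 of these genes were nearer 0 and did not pass: Col5a3 had 0.96 (adjusted p = 0.488), Vim 0.42 (adjusted p = 0.658), Gstm1 0.55 (adjusted p = 0.166) and Prdx6 0.31 (adjusted p = 0.112). Lgals3 and Ip6k3 were too low at P17 to be tested.

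**Figure D4:**
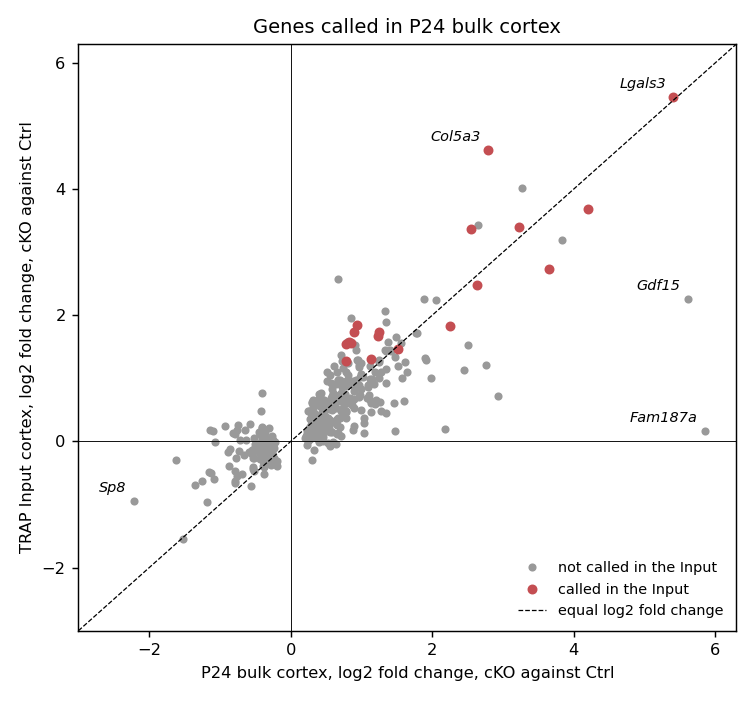
Log2 fold change (cKO against Ctrl) in P24 bulk cortex on the x axis and in the Input on the y axis for genes called in bulk; red genes also passed in the Input and the dashed line marks equal change. Most points lie in the lower left and upper right fields (350 of 385 with the same sign), and Fam187a lies at 5.86 and 0.17.

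The effect of genotype in the Input was set against that in P24 bulk in a single fit with a term for the difference. Of 24643 genes tested, 3 differed (0.0122%), 1 more positive (0.00406%) and 2 more negative (0.00812%) in the Input, and 1053 had an unadjusted p under 0.05. Fam187a, a gene directly beside Gfap, was 1 of the 3. In bulk it was at 0.0729 to 0.221 CPM in Ctrl and 7.08 to 8.62 CPM in cKO mice, and in the Input at 1.62, 1.04 and 0.965 CPM in Ctrl and 1.5, 1.30 and 1.33 CPM in cKO mice. The groups were far apart in bulk and overlapped in the Input (difference of log2 fold changes −5.69, standard error 0.39, adjusted p = 6.94e-06). Gm13787 differed by −7.83 (adjusted p = 0.000515), with bulk levels of 0.150 to 0.292 CPM in Ctrl and 0.143 to 0.539 CPM in cKO mice. The third gene is not reported here.

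Genes with a more positive effect in the Input that did not pass this test included Sod3 (difference 1.46, adjusted p = 0.0802), Vapa (1.20, adjusted p = 0.0980), Aldoc (0.91, adjusted p = 0.0980) and Gstm1 (0.86, adjusted p = 0.144). Sod3 was at 9.35 to 12 CPM in bulk Ctrl and 11.9 to 15.2 CPM in bulk cKO mice, levels above those of any Input library. Tnfsfm13 had a difference of 0.99 (adjusted p = 0.202). Of those with a more negative effect in the Input, Ppp2r2cos had −2.26 (adjusted p = 0.0802), the noncoding RNAs Gm42047 and Gm26668, the second of which spans the Gfap locus, had −1.96 and −0.94 (adjusted p = 0.261 and 0.0980), and the cyclin Ccnd2 had −0.62 (adjusted p = 0.312). Genotype differences between the experiments go together with the ribosome tag, the detergent supernatant the library preparation and possibly the Ctrl driver genotype, and these cannot be told apart.

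**Figure D5:**
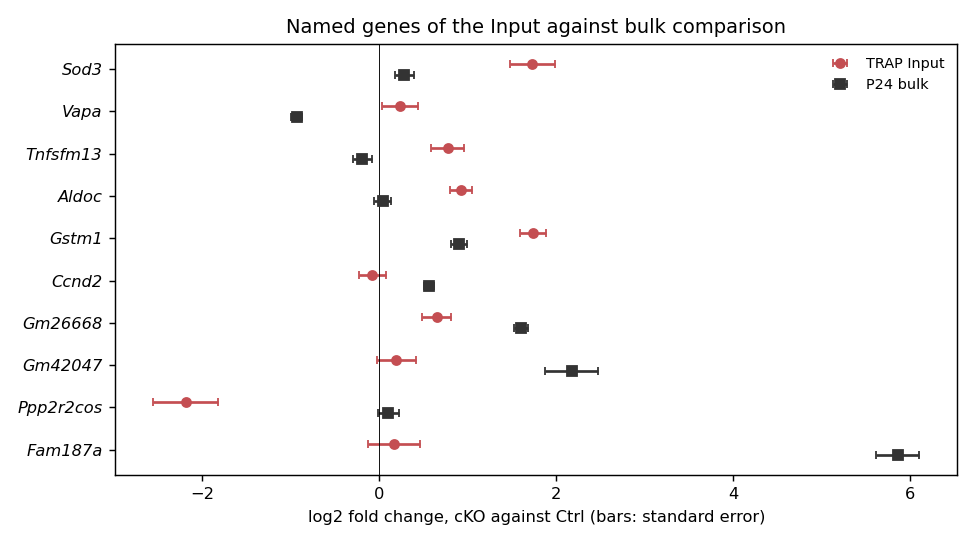
Log2 fold change (cKO against Ctrl) in the Input (red circles, 3 against 3 mice) and in P24 bulk (black squares, 4 against 4 mice) for genes named in the comparison of the experiments, with standard errors as bars. Fam187a lies near 0 in the Input and at 5.86 in bulk, and is the gene of those drawn whose difference passed the test.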

How the data were processed

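Input RNA was sequenced from 3 cKO and 3 Ctrl mice of the TRAP-Seq experiment, with a NEBNext Ultra RNA kit and selection on oligo-dT beads. Alignment was to mm10 by RNA STAR within Galaxy, and what the authors deposited are raw read counts by Ensembl identifier, without any scaling. The counting tool, its strand setting and the annotation are not given in the sources used here. GENCODE release 21 (GRCm38) held 53237 of the 53342 identifiers and gave symbols and positions.

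Tests used edgeR 4.0.16 in R 4.3.3 with TMM factors and filterByExpr (minimum count 10, minimum total 15), the filter being applied anew for each set of libraries. Genes with a two-sided quasi-likelihood p below 0.05 after Benjamini–Hochberg adjustment over the whole table were called. CPM values are scaled by TMM. A standard error was obtained from the log2 fold change and its F statistic. With 3 against 3 mice an exact permutation test of 1 gene cannot give a p below 0.1, and none was used. P24 bulk cortex (4 against 4) and the difference of the genotype effects were fitted in the same way. Depth limits low genes: 3 counts are between 0.110 and 0.163 CPM, and such floors and count ratios, which carry exact 95% intervals, cover counting error only. Whether the replicate numbers of cKO and Ctrl libraries pair littermates is not given in the sources used here, and the main fit did not pair them.

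Alternatives were the likelihood ratio and exact tests of edgeR, DESeq2 1.42.0, RLE factors, library size alone, no filter, a minimum of 10 counts in each library, a replicate block, a fit of all TRAP-Seq libraries, voom of limma 3.58.1 and each library left out. The scripts were tested on simulated data. Named were all called genes, in each direction up to 10 uncalled genes of lowest p with a mean log2 CPM of at least 1, up to 5 genes in each direction of the bulk comparison and of the difference, and members of the lists; genes outside this rule are said to be chosen after their values were seen. The members and lists were chosen with earlier results of these data known. The targeted gene and a few others are not reported here.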

Additional observations from a re-analysis of the deposited data

Results flagged for a closer look

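The genotype effect differed between the Input and P24 bulk cortex for 2 reported genes, in a test of the difference itself with edgeR's quasi-likelihood method. For Fam187a the log2 fold change was lower in the Input by a difference of −5.69 (adjusted p = 6.94e-06): it was higher in cKO in bulk and at like levels in both groups of the Input. Its Ctrl level was between 0.965 and 1.62 CPM in the Input and between 0.0729 and 0.221 CPM in bulk, in tables that were normalised separately. For Gm13787 the difference was −7.83 (adjusted p = 0.000515): it was read in all 3 Ctrl Input libraries, was nearly at 0 in the cKO Input and was low in both bulk groups. Which of the differences between the experiments goes with these genes was not tested.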

How the results depend on the processing

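The count of Input calls depended strongly on the test. Against 26 genes, the likelihood ratio test gave 137, the exact test 136, DESeq2 127, a fit of all TRAP-Seq libraries 127, no filter 49 and at least 10 counts in every library 15; voom with a quality weight per library, chosen after seeing the data, gave 318. For genes called in bulk that passed in the Input (19), the same settings gave 94, 92, 86, 81, 36 and, for voom, 149. List members that passed (3) numbered 18, 18, 19, 12 and 5, 1 with at least 10 counts in every library and 31 with voom. Bulk calls (388) were 619, 603 and 598 by the likelihood ratio test, the exact test and DESeq2. Differences between Input and bulk (3) were 27 by the likelihood ratio test, 21 by DESeq2, 5 with library size alone, 9 with no filter, 1 with at least 10 counts and 5 with voom per experiment.

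Leaving out each library gave 4 to 112 Input calls, 216 to 950 bulk calls, 3 to 11 differences, 2 to 74 bulk-called genes that passed in the Input and 0 to 17 list members; the highest Input values are those without cKO replicate 1. The share of bulk-called genes with the same sign stayed between 86.8% and 91.7%. The replicate numbers share no animal, and residuals of same-numbered libraries correlated at −0.03, 0.10 and 0.03; with the replicate block, 8 Input genes passed and 7 of the genes called in bulk.

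All 25 reported genes kept their direction under every alternative in which they were tested. A chosen set of uncalled genes was followed through the alternatives as well, and 4 of them turned direction. Fam187a (−0.071) and Slc1a2 (0.21) did so with voom. With single libraries left out, Ccnd2 (between −0.13 and 0.050), Slc1a2 (between −0.27 and 0.17) and Slc1a3 (between −0.066 and 0.25) turned. Of genes given by their levels, Hbb-bs (0.94 to −0.15), Ddx3y (0.15 to −0.46) and Prdx2 (0.37 to −0.052) turned without cKO replicate 1; of all 331 list members tested, 72 did. The cause of these changes was not tested.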
